A study of Mus musculus with 9 samples.

Results

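The 37 genes described here encode matrix proteins other than collagens, enzymes and chaperones that modify collagen, and surface proteins by which fibroblasts are recognised. They are 7 matrix glycoproteins, 8 proteoglycans, 9 proteins of elastic fibres, 5 lysyl oxidases, 5 proteins of collagen processing and 3 fibroblast surface markers. They form a list of gene symbols, taken whole. Of the 37, 35 had a probe set that the platform's annotation gives to 1 gene, among 18193 such genes in all, and each gene was read from its brightest probe set. The probe sets of Loxl2 are annotated to several genes, so no value is given for it, and Fbn1 was not analysed here. Of the 35, 31 had a mean signal at or above 113 units, the median of all probe sets, and were tested among 12167 genes. Ogn, Fbn2, Loxl4 and Fap were dimmer and are given as signals only.

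The signals come from 9 mouse oral tumors, with 1 Affymetrix expression array for each, in 3 groups of 3. By their labelled genotypes, p53R172H/- tumors had 1 copy of the p53R172H missense mutation and 1 deleted copy, p53R172H/+ tumors had the mutation beside a wild-type copy, and in p53-/- tumors both copies were deleted. All groups share Ras activation, by the title of the series, and the letter K before the genotype in the mouse names, and all mice were 1 year old. No source used here says what drives these alleles or in which cells. Nor do the labels say that each tumor came from its own animal, and the p-values below reflect only how far these tumors differ. The series' design text sets tumors with the mutant allele beside tumors with p53 deleted, and the comparisons below follow from that.

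In solid tumors most of these genes are transcribed by fibroblasts of the stroma, and some also by epithelial, vascular or muscle cells. The fibroblast secretes collagen and, around it, glycoproteins such as fibronectin, periostin and tenascin that link the fibres to cells, small leucine-rich proteoglycans such as decorin and lumican that set the thickness of collagen fibrils, and the fibulins and microfibril proteins on which elastin is laid down. Before secretion collagen is hydroxylated by prolyl and lysyl hydroxylases and folded with the chaperone Hsp47. After secretion lysyl oxidases cross-link collagen and elastin.

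The tissue label was checked against markers. Krt14, a keratin of basal squamous epithelium, had signals of 20662 to 22692 units in the p53R172H/- tumors, 21292 to 22588 units in the p53R172H/+ tumors and 19908 to 22680 units in the p53-/- tumors. The mean log2 signal of 16 epithelial genes was 12.38 to 12.48 in p53R172H/- tumors, 12.36 to 12.53 in p53R172H/+ tumors and 12.32 to 12.46 in p53-/- tumors, so the groups overlapped. The array medians were 109 to 123 units. Skeletal muscle genes varied most among the marker lists: the summed signal of 16 of them was 1769 to 46832 units in p53R172H/- tumors, 1512 to 7527 units in p53R172H/+ tumors and 3839 to 7175 units in p53-/- tumors. The 3'/5' signal ratio of beta-actin, a measure of RNA integrity in which higher means more degraded, was 1.31 to 1.56 in p53R172H/- tumors, 1.36 to 1.48 in p53R172H/+ tumors and 1.5 to 1.69 in p53-/- tumors. These are whole pieces of tumor, so fewer cells of a type and less RNA per cell cannot be told apart.

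A set of promoters is shown because the genes they belong to followed different patterns over the 9 tumors: Thbs2, Sparc and Plod1 were lowest on average in p53R172H/- tumors, while Pdgfra varied mainly within genotypes. The windows run from 250 bases before to 50 bases after the annotated start and are 300 bases long, from RefSeq on build GRCm38.p6. They lie at chr17:14694213-14694512 (minus strand) for Thbs2, chr11:55420031-55420330 (minus strand) for Sparc, chr4:147936727-147937026 (minus strand) for Plod1 and chr5:75152001-75152300 (plus strand) for Pdgfra. Each reads 5′ to 3′ along its gene, and capitals mark matches, on either strand, to any of 4 motifs searched. The first was the TATA box, as TATAAA. The core of the site of TEAD factors was searched as CATTCC. The site of AP-1 factors was searched as TGANTCA, where N is any base. The last was the GC box, as GGGCGG, and no motif contains another.
Thbs2: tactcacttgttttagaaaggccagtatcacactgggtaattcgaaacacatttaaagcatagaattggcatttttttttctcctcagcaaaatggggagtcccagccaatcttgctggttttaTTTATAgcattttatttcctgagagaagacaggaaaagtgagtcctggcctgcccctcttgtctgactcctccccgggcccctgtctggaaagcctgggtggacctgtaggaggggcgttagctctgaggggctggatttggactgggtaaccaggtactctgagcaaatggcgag
Sparc: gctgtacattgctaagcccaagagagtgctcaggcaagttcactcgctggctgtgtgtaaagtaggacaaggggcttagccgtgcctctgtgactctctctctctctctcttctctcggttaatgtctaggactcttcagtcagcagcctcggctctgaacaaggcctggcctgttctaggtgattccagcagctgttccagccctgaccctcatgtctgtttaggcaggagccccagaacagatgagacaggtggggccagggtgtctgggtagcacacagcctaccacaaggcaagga
Plod1: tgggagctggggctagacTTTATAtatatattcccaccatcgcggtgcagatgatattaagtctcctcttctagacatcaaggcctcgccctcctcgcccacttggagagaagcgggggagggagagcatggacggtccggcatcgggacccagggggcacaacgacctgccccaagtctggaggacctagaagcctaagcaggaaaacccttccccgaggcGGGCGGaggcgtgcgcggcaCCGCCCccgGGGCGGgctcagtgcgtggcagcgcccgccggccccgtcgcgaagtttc
Pdgfra: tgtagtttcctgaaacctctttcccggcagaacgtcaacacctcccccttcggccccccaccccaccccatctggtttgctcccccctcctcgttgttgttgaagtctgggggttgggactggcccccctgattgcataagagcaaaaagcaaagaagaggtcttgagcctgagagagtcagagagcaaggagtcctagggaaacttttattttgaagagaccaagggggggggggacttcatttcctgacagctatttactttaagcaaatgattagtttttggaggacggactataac
In these windows Thbs2 held 1 TATAAA match, which reads TTTATA on the printed strand and starts 126 bases before the gene's start. Plod1 held 1 TATAAA match and 3 GC boxes, and the windows of Sparc and Pdgfra held no match to the 4 motifs. A promoter was found for 22 of the listed genes, 27 windows in all with alternative starts. TATAAA was in 7 of the 27 windows and in 13.6% of the 32851 promoters of the same length, CATTCC in 2 and 14.7%, TGANTCA in 0 and 7.81%, and GGGCGG in 15 and 35.7%.

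The comparison of p53R172H/- with p53-/- tumors sets tumors with the missense allele and no wild-type allele beside tumors without p53. Several matrix genes had lower signals in the p53R172H/- tumors. The glycoprotein genes Thbs2, Postn and Sparc, the proteoglycan gene Lum, the microfibril gene Mfap2, the lysyl hydroxylase gene Plod2 and the receptor gene Pdgfrb all averaged 1.32 to 1.87-fold lower. No gene of the 12167 passed an adjusted p of 0.05 by limma (0%), while 1897 had an unadjusted p under 0.05, so these are differences in these tumors that did not pass the test over all genes. Of the 31 genes tested, 8 were lower with an unadjusted p under 0.05, against a background of 9.16% of all genes, and 0 were higher, against 6.44%. The groups of 3 tumors did not overlap, with the p53R172H/- tumors lower, for 8 of the 31, against 13.8% of all genes. The group mean was lower for 21 of the 31, against 56.2% of all genes. The median log2 fold change was -0.23 over the 31 and -0.18 over all 35, against -0.03 over all genes tested. Without p53R172H/- tumor 1 it was -0.04 over the 31, against -0.02 over all genes.

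**Figure D1:**
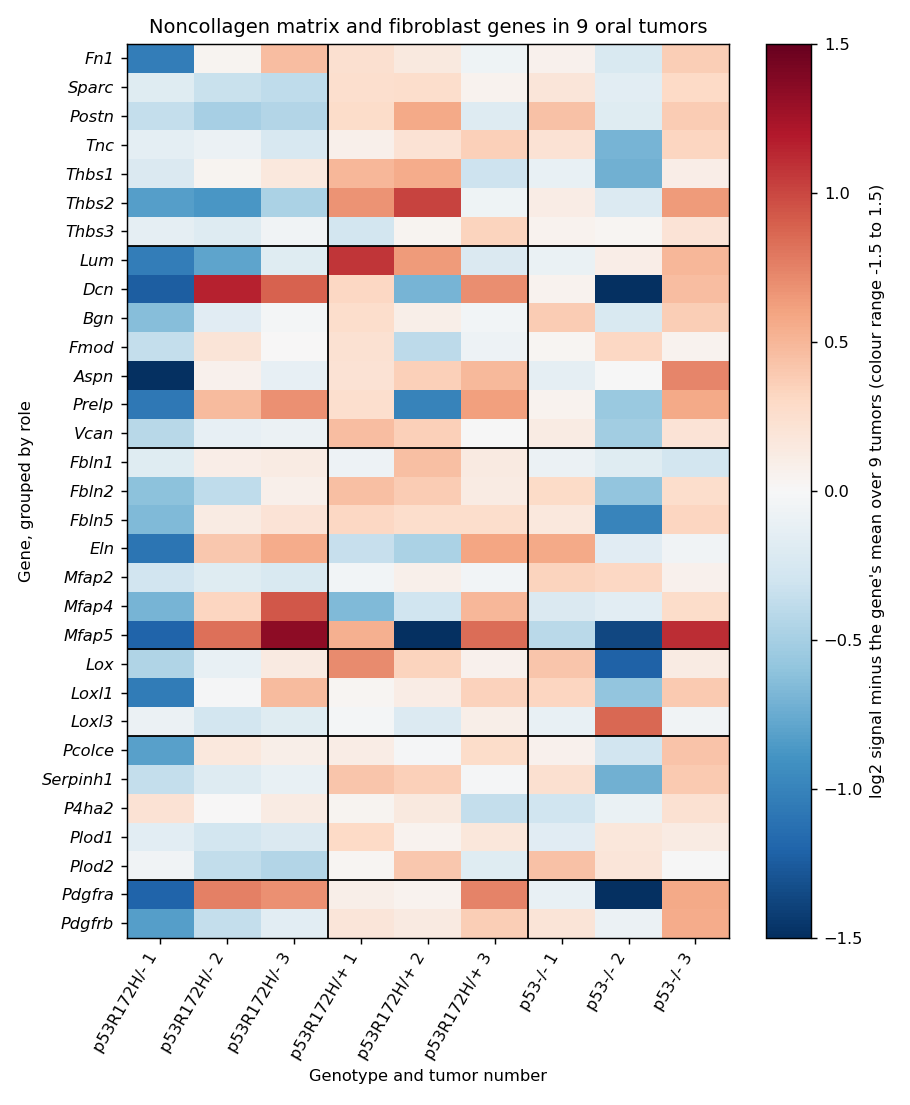
Log2 signal of the 31 tested genes (rows, grouped by role) in the 9 tumors (columns, by genotype and tumor number), each as the difference from the gene's mean over the 9 tumors, with blue lower and red higher and the colours cut at -1.5 and 1.5. Sparc, Postn, Thbs2, Mfap2 and Pdgfrb are blue in all 3 p53R172H/- tumors, while Dcn, Mfap5 and Pdgfra are blue in p53R172H/- tumor 1 and p53-/- tumor 2 and red in p53R172H/- tumors 2 and 3.

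Among the matrix glycoproteins, Thbs2, which encodes the antiangiogenic matricellular protein thrombospondin-2, had signals of 211, 205 and 269 units in p53R172H/- tumors 1 to 3, against 404, 325 and 579.9 units in p53-/- tumors 1 to 3. Every p53R172H/- tumor lay below every p53-/- tumor. The log2 fold change was -0.90 ± 0.29 (SE), a 1.87-fold lower signal (limma, adjusted p = 0.251).

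Postn, the gene of periostin, a matricellular protein of stromal fibroblasts, had 3697, 3348 and 3507 units in p53R172H/- tumors, against 6455, 4190 and 6198 units in p53-/- tumors. The p53R172H/- tumors were close to one another, at 3517 ± 175 units (SD, n = 3), against 5614 ± 1240 units in p53-/- tumors (SD, n = 3). The log2 fold change was -0.65 ± 0.21 (limma, adjusted p = 0.251).

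Sparc, which encodes the collagen-binding glycoprotein osteonectin, had 5461, 4903 and 4752 units in p53R172H/- tumors, against 7008, 5536 and 7568 units in p53-/- tumors. The groups did not overlap, though p53R172H/- tumor 1, at 5461 units, lay just below p53-/- tumor 2, at 5536 units. The log2 fold change was -0.40 ± 0.12 (limma, adjusted p = 0.243).

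The other glycoproteins differed less between these groups. Thbs3, another thrombospondin, was at 158 to 174 units in p53R172H/- tumors and 184 to 208 units in p53-/- tumors, without overlap, with a log2 fold change of -0.23 ± 0.15. Tnc, the gene of tenascin-C, had 1498 to 1666 units in p53R172H/- tumors and 1086 to 2202 units in p53-/- tumors. Fn1, the gene of fibronectin, split the p53R172H/- tumors, at 821, 1736 and 2336 units for tumors 1 to 3, against 1448 to 2191 units in p53-/- tumors. Thbs1, thrombospondin-1, had a higher mean in p53R172H/- tumors, at 364 ± 47.0 units, against 315 ± 86.3 units in p53-/- tumors (SD, n = 3 each), with overlapping groups.

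Among the proteoglycans, Lum, which encodes lumican, had 422, 499.5 and 759.5 units in p53R172H/- tumors, against 808, 923 and 1223 units in p53-/- tumors. All 3 p53R172H/- tumors were below all 3 p53-/- tumors, with a log2 fold change of -0.84 ± 0.33 (limma, adjusted p = 0.288). Bgn, the gene of biglycan, had 2088, 2886 and 3175 units in p53R172H/- tumors, against 4227, 2769 and 4176 units in p53-/- tumors. Here p53-/- tumor 2 lay among the p53R172H/- tumors, and the log2 fold change was -0.45 ± 0.20 (limma, adjusted p = 0.317).

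Aspn, the gene of asporin, had 203, 645 and 562 units in p53R172H/- tumors, against 559, 614 and 1023 units in p53-/- tumors. Its log2 fold change of -0.75 ± 0.40 (limma, adjusted p = 0.386) rested on p53R172H/- tumor 1, without which it was -0.23. Dcn, the gene of decorin, ran the other way on average, with 1207, 6349 and 5253 units in p53R172H/- tumors, against 2951, 919 and 3934 units in p53-/- tumors. The spread within each group was wide, and the log2 fold change of 0.64 had a 95% interval of -0.96 to 2.24. Fmod, Prelp and Vcan, which encode fibromodulin, prolargin and the large proteoglycan versican, had log2 fold changes of -0.18, 0.01 and -0.14, all with overlapping groups. On its other probe sets Fmod had log2 fold changes of 0.13 to 0.57, all in the direction opposite to the brightest one.

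Among the elastic fibre genes, Mfap2, which encodes the microfibril protein MAGP-1, had the smallest unadjusted p of the 31 genes. Its signals were 209, 224 and 217 units in p53R172H/- tumors, against 321, 315 and 266 units in p53-/- tumors. The highest p53R172H/- tumor lay below the lowest p53-/- tumor, and the log2 fold change was -0.47 ± 0.10 (limma, adjusted p = 0.214). On the other probe set of Mfap2, with a mean of 162 units, the log2 fold change was only -0.045. The other tested genes of this role all overlapped between the groups. Fbln1, Fbln2 and Fbln5, the fibulins, had log2 fold changes of 0.20, -0.29 and 0.05, and Eln, the gene of elastin itself, one of -0.16. Mfap4 and Mfap5, 2 more microfibril-associated genes, had 0.22 and 0.54, the second with a 95% interval of -1.42 to 2.51.

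Among the lysyl oxidases, Lox had 269 to 405 units in p53R172H/- tumors and 159 to 492 units in p53-/- tumors. Loxl1, a member that acts on elastin, had 236 to 675 units in p53R172H/- tumors and 323 to 642 units in p53-/- tumors. Loxl3 had 136 to 156 units in p53R172H/- tumors and 154 to 301 units in p53-/- tumors, the top value being p53-/- tumor 2. Their log2 fold changes were 0.08, -0.24 and -0.42, and the groups overlapped for each.

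Among the collagen processing genes, Plod2, the lysyl hydroxylase of collagen telopeptides, had 137, 109.8 and 104 units in p53R172H/- tumors, against 192, 160.2 and 141 units in p53-/- tumors. The groups did not overlap, with the closest values at 137 and 141 units, and the log2 fold change was -0.49 ± 0.18 (limma, adjusted p = 0.282). On the other probe set of Plod2, below the filter with a mean of 104 units, the log2 fold change was only -0.075. Plod1, a lysyl hydroxylase of the triple helix, had 138, 127 and 132 units in p53R172H/- tumors, against 136, 174 and 167 units in p53-/- tumors. Its log2 fold change was -0.26 ± 0.12 (limma, adjusted p = 0.351), with p53-/- tumor 1 among the p53R172H/- tumors. Both genes are dim on these arrays, near the 113 units of the filter. Serpinh1 (Hsp47), Pcolce (an enhancer of procollagen cleavage) and P4ha2 (a subunit of prolyl hydroxylase) had log2 fold changes of -0.18, -0.26 and 0.17, with overlap.

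The fibroblast surface markers parted from each other. Pdgfrb, the PDGF receptor of pericytes and fibroblasts, had 304, 423 and 483 units in p53R172H/- tumors, against 616, 509 and 794 units in p53-/- tumors. The groups did not overlap, and the log2 fold change was -0.67 ± 0.20 (limma, adjusted p = 0.243). Pdgfra, the PDGF receptor of fibroblasts, had 146, 567 and 541 units in p53R172H/- tumors, against 310.2, 111 and 500.0 units in p53-/- tumors. Its log2 fold change was 0.46 with a 95% interval of -0.94 to 1.85.

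The 4 dim genes also overlapped between these groups. Ogn, the gene of osteoglycin, had 48.0 to 183 units in p53R172H/- tumors and 61.2 to 83.6 units in p53-/- tumors. Fbn2, of fibrillin-2, had 97.2 to 128 units in p53R172H/- tumors and 94.0 to 146 units in p53-/- tumors, and Loxl4 had 78.8 to 95.2 units in p53R172H/- tumors and 83.6 to 122 units in p53-/- tumors. Fap, the gene of fibroblast activation protein, a protease of activated fibroblasts, had 56.8 to 101 units in p53R172H/- tumors and 54.4 to 90.5 units in p53-/- tumors.

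With the beta-actin ratio as a term in the fit, 4 of the 31 were lower and 1 higher with an unadjusted p under 0.05 in place of 8 and 0, where 2.40% of all genes were lower and 3.26% higher in the same fit. Of the 31 genes, 16 had several probe sets above the filter, and the direction was the same on all of them for 12, the others being Fbln1, Fmod, Pdgfra and Prelp.

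**Figure D2:**
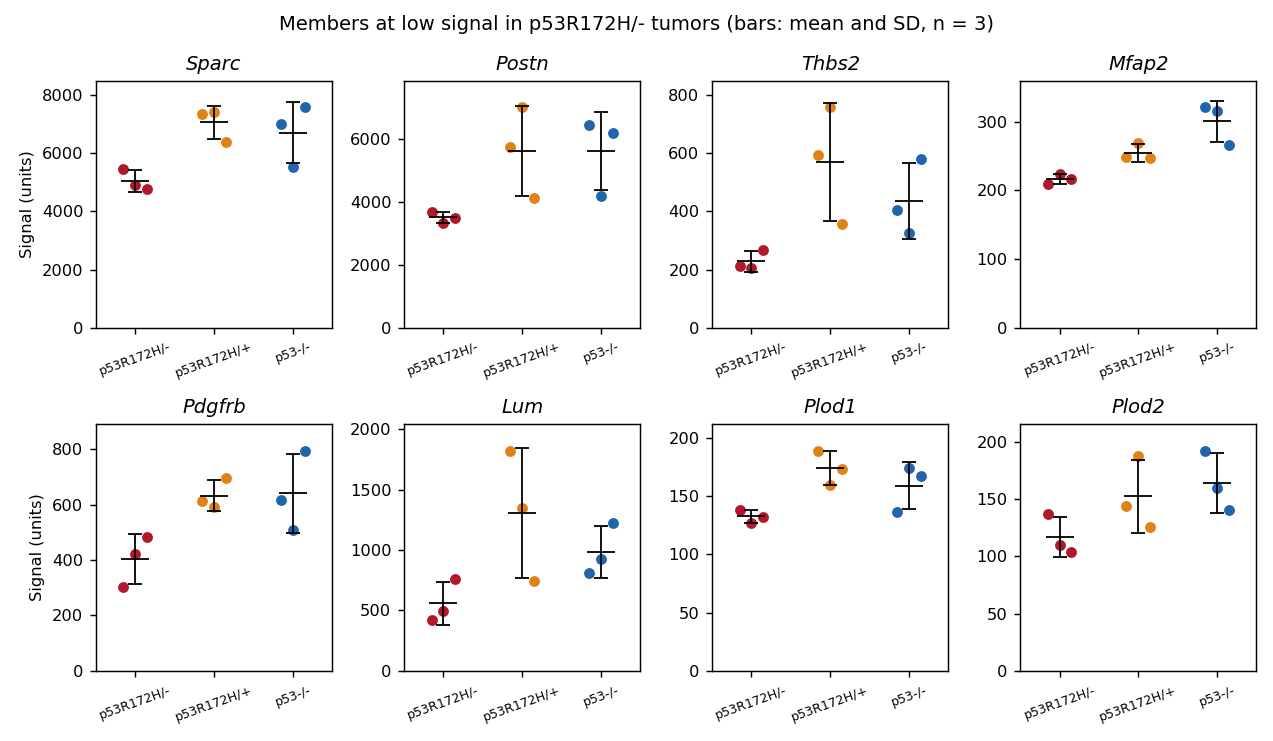
Signal (units, linear axis from 0) of 8 genes in each tumor, with p53R172H/- tumors in red, p53R172H/+ tumors in orange and p53-/- tumors in blue, and bars for the mean and SD of 3 tumors. For Sparc, Postn, Thbs2, Mfap2 and Pdgfrb the 3 p53R172H/- tumors lie below all 6 other tumors, while for Lum, Plod1 and Plod2 they overlap at least 1 of the other groups.

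The comparison of p53R172H/+ with p53-/- tumors sets tumors with the mutation and a wild-type copy beside tumors without p53. Here some genes that were low in p53R172H/- tumors had close means and others did not. Sparc averaged 7052 ± 570.0 units in p53R172H/+ tumors and 6704 ± 1050 units in p53-/- tumors, and Pdgfrb averaged 633 ± 55.5 units in p53R172H/+ tumors and 639.9 ± 144 units in p53-/- tumors (SD, n = 3 each). Thbs2 averaged 569.9 ± 201 units in p53R172H/+ tumors and 436 ± 131 units in p53-/- tumors, and Lum averaged 1304 ± 539 units in p53R172H/+ tumors and 985 ± 215 units in p53-/- tumors (SD, n = 3 each). More of the 31 genes had a higher mean than a lower one, 20 against 11, with higher means in 43.9% of all genes. The median log2 fold change was 0.12, against -0.03 over all genes tested, and the range was -0.29 to 0.67. By limma 0% of all genes passed the adjusted threshold, 1259 had an unadjusted p under 0.05, and 1 of the 31 was higher and 1 lower by that measure, against backgrounds of 4.75% and 5.6%. Without overlap between the groups 1 of the 31 was higher, against 7.08% of all genes. A p that misses the threshold does not show that the groups were alike: the 95% interval of the log2 fold change was -0.19 to 0.35 for Sparc and -0.47 to 0.46 for Postn.

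The gene that was higher without overlap was Fbln1, which encodes the basement membrane and elastic fibre protein fibulin-1. It had 379, 547 and 438 units in p53R172H/+ tumors, against 376, 354 and 329.6 units in p53-/- tumors. The closest tumors of the groups, at 379 and 376 units, were almost equal, and the log2 fold change was 0.35 ± 0.15 (limma, adjusted p = 0.465). Mfap2 was the lower one, with 248, 269 and 247 units in p53R172H/+ tumors, against 321, 315 and 266 units in p53-/- tumors. The groups overlapped in p53-/- tumor 3, and the log2 fold change was -0.24 ± 0.10 (limma, adjusted p = 0.472).

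Of the other glycoproteins, Thbs1 had 511, 533 and 293 units in p53R172H/+ tumors, against 336, 219.9 and 388 units in p53-/- tumors, with a log2 fold change of 0.49 ± 0.27. Thbs2 had 595, 758 and 357 units in p53R172H/+ tumors, against the p53-/- values above, and a log2 fold change of 0.36 ± 0.29. Tnc had 1866, 2050 and 2255 units in p53R172H/+ tumors, against 2048, 1086 and 2202 units in p53-/- tumors. Its log2 fold change of 0.27 ± 0.23 came from p53-/- tumor 2, without which it was -0.050.

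Vcan had 215, 199.6 and 154 units in p53R172H/+ tumors, against 169, 108 and 179.6 units in p53-/- tumors, with a log2 fold change of 0.34 ± 0.21. Fbln2 had 548, 519.6 and 436 units in p53R172H/+ tumors, against 486, 264 and 480.4 units in p53-/- tumors, with a log2 fold change of 0.34 ± 0.25 that was -0.048 as the mean of all its probe sets. Fbln5, needed for elastic fibre assembly, had 309, 298 and 299 units in p53R172H/+ tumors, against 278, 125.3 and 312 units in p53-/- tumors. Its p53R172H/+ tumors were nearly equal, while p53-/- tumor 2 was far below its group, and without that tumor the log2 fold change of 0.45 ± 0.34 was 0.04.

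Lox showed the same p53-/- tumor low, with 602, 465 and 387 units in p53R172H/+ tumors, against 492, 159 and 402 units in p53-/- tumors. Its log2 fold change was 0.60 ± 0.38, and 0.10 without p53-/- tumor 2. Loxl3 had 162, 143 and 176 units in p53R172H/+ tumors, against 154, 301 and 160.3 units in p53-/- tumors, and its log2 fold change of -0.29 ± 0.23 was 0.024 without p53-/- tumor 2. Without p53-/- tumor 2 the median log2 fold change of the 31 genes was -0.06 in place of 0.12. The signs on several probe sets were the same for 12 of 16 genes, the others being Mfap5, Pcolce, Sparc and Thbs2.

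**Figure D3:**
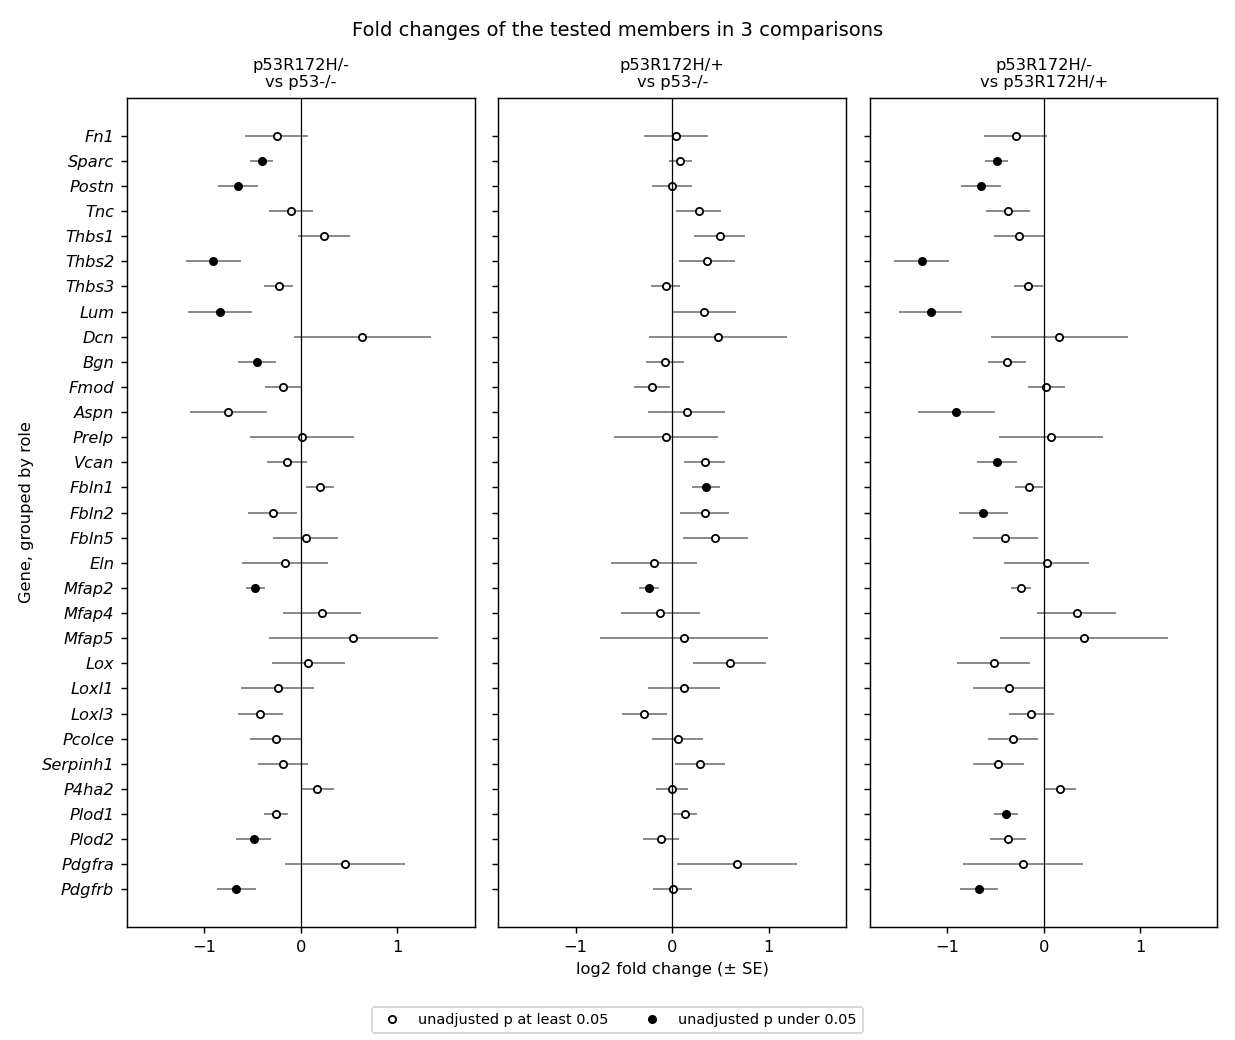
Log2 fold change (points) and its SE (bars) of the 31 tested genes, grouped by role, in the 3 comparisons, with filled points for an unadjusted p under 0.05 and open points for the rest. In both comparisons of p53R172H/- tumors the filled points are all left of 0, 8 against p53-/- tumors and 9 against p53R172H/+ tumors, and none passed the adjusted threshold.

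The comparison of p53R172H/- with p53R172H/+ tumors sets the mutation with a deleted second copy beside the mutation with a wild-type one. It shares its p53R172H/- tumors with the first comparison, so the values of both stand side by side and are not independent. Several matrix genes again had lower signals in the p53R172H/- tumors, with Thbs2 2.40-fold, Lum 2.25-fold, Postn 1.57-fold, Pdgfrb 1.59-fold and Sparc 1.40-fold lower on average. By limma 0% of all genes passed the adjusted threshold and 603 had an unadjusted p under 0.05. By that measure 9 of the 31 genes were lower, against 2.96% of all genes, and 0 were higher, against 2%. For 12 of the 31 the p53R172H/- tumors lay below the p53R172H/+ tumors without overlap, against 6.62% of all genes. The mean was lower for 24 of the 31, against 52% of all genes, and the median log2 fold change was -0.36, against -0.01 over all genes. Without p53R172H/- tumor 1 it was -0.18.

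Thbs2 had the largest log2 fold change of the 31, -1.26 ± 0.29 (limma, adjusted p = 0.916), from 211, 205 and 269 units in p53R172H/- tumors and 595, 758 and 357 units in p53R172H/+ tumors. Sparc had 5461, 4903 and 4752 units in p53R172H/- tumors, against 7351, 7411 and 6395 units in p53R172H/+ tumors, with a log2 fold change of -0.48 ± 0.12 (limma, adjusted p = 0.916). Postn had 3697, 3348 and 3507 units in p53R172H/- tumors, against 5748, 7010 and 4134 units in p53R172H/+ tumors, with -0.65 ± 0.21 (limma, adjusted p = 0.949). The p53R172H/- tumors were below all p53R172H/+ tumors for each of these glycoprotein genes.

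Lum had 422, 499.5 and 759.5 units in p53R172H/- tumors, against 1821, 1345 and 745 units in p53R172H/+ tumors. Its groups overlapped, since p53R172H/- tumor 3 was above p53R172H/+ tumor 3, and the log2 fold change was -1.17 ± 0.33 (limma, adjusted p = 0.916). Vcan had 116, 143 and 147 units in p53R172H/- tumors, against 215, 199.6 and 154 units in p53R172H/+ tumors, without overlap, and a log2 fold change of -0.48 ± 0.21. Aspn had 203, 645 and 562 units in p53R172H/- tumors, against 715, 785 and 859 units in p53R172H/+ tumors, also without overlap. Its log2 fold change of -0.90 ± 0.40 was -0.38 without p53R172H/- tumor 1.

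Fbln2, which encodes fibulin-2, had 260.3, 307 and 422 units in p53R172H/- tumors, against 548, 519.6 and 436 units in p53R172H/+ tumors, with a log2 fold change of -0.63 ± 0.25. Mfap2 had 209, 224 and 217 units in p53R172H/- tumors, against 248, 269 and 247 units in p53R172H/+ tumors, with -0.23 ± 0.10. Neither gene overlapped between the groups. The other probe sets of Mfap2, Eln and Prelp did not all share the sign of the brightest one.

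Plod1 had 138, 127 and 132 units in p53R172H/- tumors, against 189, 159.6 and 173 units in p53R172H/+ tumors, with a log2 fold change of -0.39 ± 0.12 (limma, adjusted p = 0.948). Pdgfrb had 304, 423 and 483 units in p53R172H/- tumors, against 612, 591 and 695 units in p53R172H/+ tumors, with -0.67 ± 0.20 (limma, adjusted p = 0.927). Both were separate between the groups. Tnc, Fbln5 and Serpinh1 were lower without overlap as well, with log2 fold changes of -0.37, -0.40 and -0.47. Of the remaining genes, Lox and Loxl1 had log2 fold changes of -0.51 and -0.36, and Pdgfra one of -0.21, each with overlap.

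Set across all 3 groups, the mean was lowest in the p53R172H/- tumors for 19 of the 31 genes, in the p53R172H/+ tumors for 5 and in the p53-/- tumors for 7. It was highest in the p53R172H/- tumors for 5, in the p53R172H/+ tumors for 18 and in the p53-/- tumors for 8. This order of the 3 groups was not counted over all genes. Pair by pair, the p53R172H/- mean was below the p53-/- mean for 56.2% of all genes and below the p53R172H/+ mean for 52%. The p53R172H/+ mean was above the p53-/- mean for 43.9%. For 5 of the 31 genes, Sparc, Postn, Thbs2, Mfap2 and Pdgfrb, all 3 p53R172H/- tumors were below all 6 other tumors, which held for 2.53% of all genes tested. By role, the median log2 fold change in p53R172H/- against p53-/- tumors was -0.25 for 7 glycoproteins, -0.18 for 7 proteoglycans, 0.05 for 7 elastic fibre genes, -0.24 for 3 lysyl oxidases and -0.26 for 5 collagen processing genes.

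**Figure D4:**
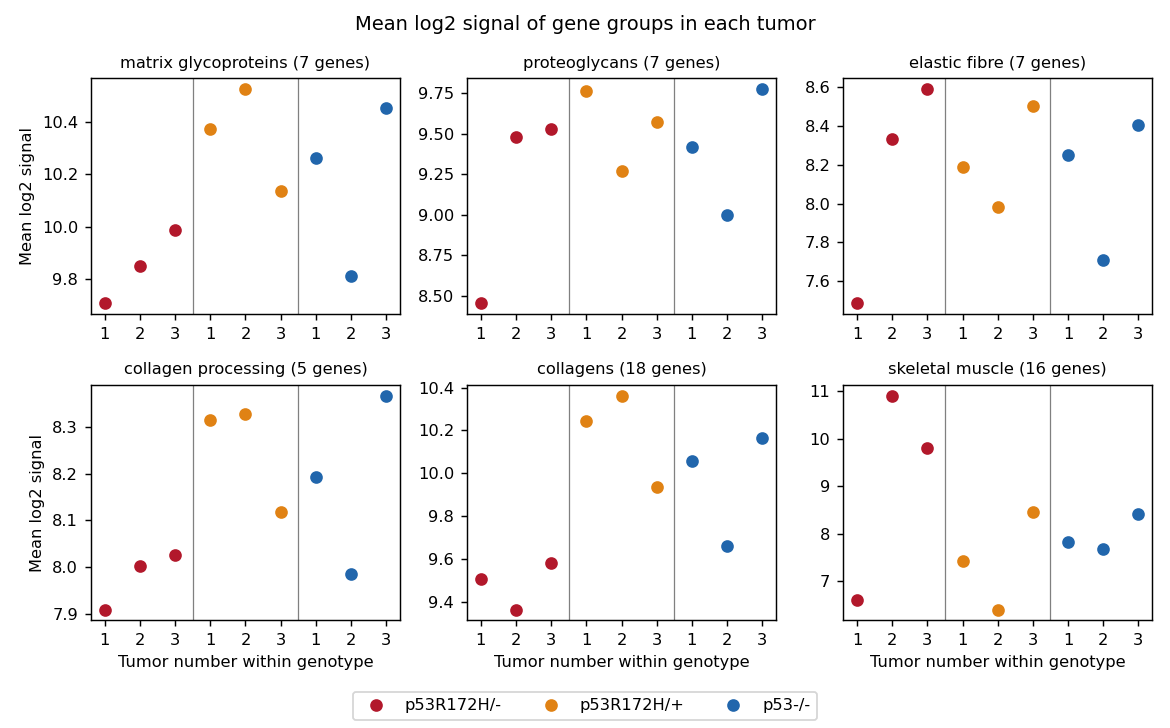
Mean log2 signal of the tested genes of 4 roles, of 18 collagens and of 16 skeletal muscle genes in each tumor, with p53R172H/- tumors left (red), p53R172H/+ tumors in the middle (orange) and p53-/- tumors right (blue). The collagens of all 3 p53R172H/- tumors lie at 9.36 to 9.58, below all other tumors, while the elastic fibre genes and proteoglycans are lowest in p53R172H/- tumor 1 and p53-/- tumor 2, and muscle genes are highest in p53R172H/- tumors 2 and 3.

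Within genotypes a second pattern ran through the list, carried by single tumors. p53R172H/- tumor 1 had the lowest signal of all 9 tumors for 12 of the 31 genes, and p53-/- tumor 2 for 8. The same counts were not made over all genes, so whether they are particular to this list is not known. Dcn spanned 6.91-fold over the 9 tumors, with 6349 units in p53R172H/- tumor 2 at the top and 919 units in p53-/- tumor 2 at the bottom. Mfap5, which encodes the microfibril protein MAGP-2, spanned 8.01-fold, with 125.05, 511 and 729 units in p53R172H/- tumors, 415, 91.0 and 515 units in p53R172H/+ tumors and 217, 112 and 619.9 units in p53-/- tumors. Pdgfra spanned 5.09-fold, with 358, 348 and 563 units in p53R172H/+ tumors beside the values above. In Dcn and Mfap5 the tumors low for their group were p53R172H/- tumor 1, p53R172H/+ tumor 2 and p53-/- tumor 2.

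Prelp followed the same tumors, with 139, 405 and 469.9 units in p53R172H/- tumors, 347, 146 and 448 units in p53R172H/+ tumors and 302, 198 and 431 units in p53-/- tumors. Eln had 162, 456 and 508 units in p53R172H/- tumors, 272, 249 and 521 units in p53R172H/+ tumors and 512, 306 and 334 units in p53-/- tumors. Mfap4 had 97.0, 196 and 300.2 units in p53R172H/- tumors, 99.0, 128 and 221 units in p53R172H/+ tumors and 135, 140.3 and 190.5 units in p53-/- tumors.

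The signals of skeletal muscle genes differed between these tumors too. The mean log2 signal of the 16 muscle genes was 6.61, 10.91 and 9.81 in p53R172H/- tumors 1 to 3, 7.42, 6.40 and 8.46 in p53R172H/+ tumors and 7.84, 7.67 and 8.41 in p53-/- tumors. Acta1, skeletal muscle actin, had 273, 7605 and 4440 units in p53R172H/- tumors, against 722, 536 and 1432 units in p53-/- tumors. In a fit with a mean per genotype and this muscle mean as a term, added after the data were seen, 5 of the 31 genes had a positive slope with an adjusted p under 0.05 over all genes by limma, against 2.18% of all genes tested. They were Dcn (0.64 ± 0.13 log2 units per log2 unit of muscle signal, SE, adjusted p = 0.0411), Prelp (0.49 ± 0.10, adjusted p = 0.0326), Eln (0.40 ± 0.09, adjusted p = 0.0478), Aspn (0.36 ± 0.07, adjusted p = 0.0345) and Pcolce (0.24 ± 0.05, adjusted p = 0.0436).

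Mfap5 and Pdgfra had slopes of 0.72 ± 0.19 and 0.51 ± 0.14, with adjusted p of 0.0996 and 0.105 by limma. The genes that were low in all p53R172H/- tumors had smaller slopes, of 0.15 for Pdgfrb, -0.002 for Mfap2, -0.04 for Sparc, -0.05 for Thbs2 and -0.08 for Postn. Both sets of genes were picked by their values in these same tumors, so the contrast between them is not an independent result. Both the calls and the slopes depend on single tumors. With any 1 tumor left out the slope was 0.60 to 0.75 for Dcn, 0.43 to 0.65 for Prelp, 0.32 to 0.49 for Eln, 0.19 to 0.42 for Aspn and 0.20 to 0.27 for Pcolce, while 0 to 6 of the 31 passed. Without p53R172H/- tumor 3, 0 of the 31 passed, where 1.61% of all genes did. Without p53R172H/+ tumor 3 it was also 0, where 1.41% of all genes did. Without p53R172H/- tumor 1, 0 of the 31 passed as well, and 0.0904% of all genes did. The SE of the Dcn slope without p53R172H/- tumor 1 was 0.28 in place of 0.13. The median slope of the 31 was then -0.004 in place of 0.07. Of the 31 slopes 15 were above 0 in place of 23, where 54.9% in place of 57.2% of all genes were. The part of muscle tissue in the levels of these genes was not tested beyond this fit.

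**Figure D5:**
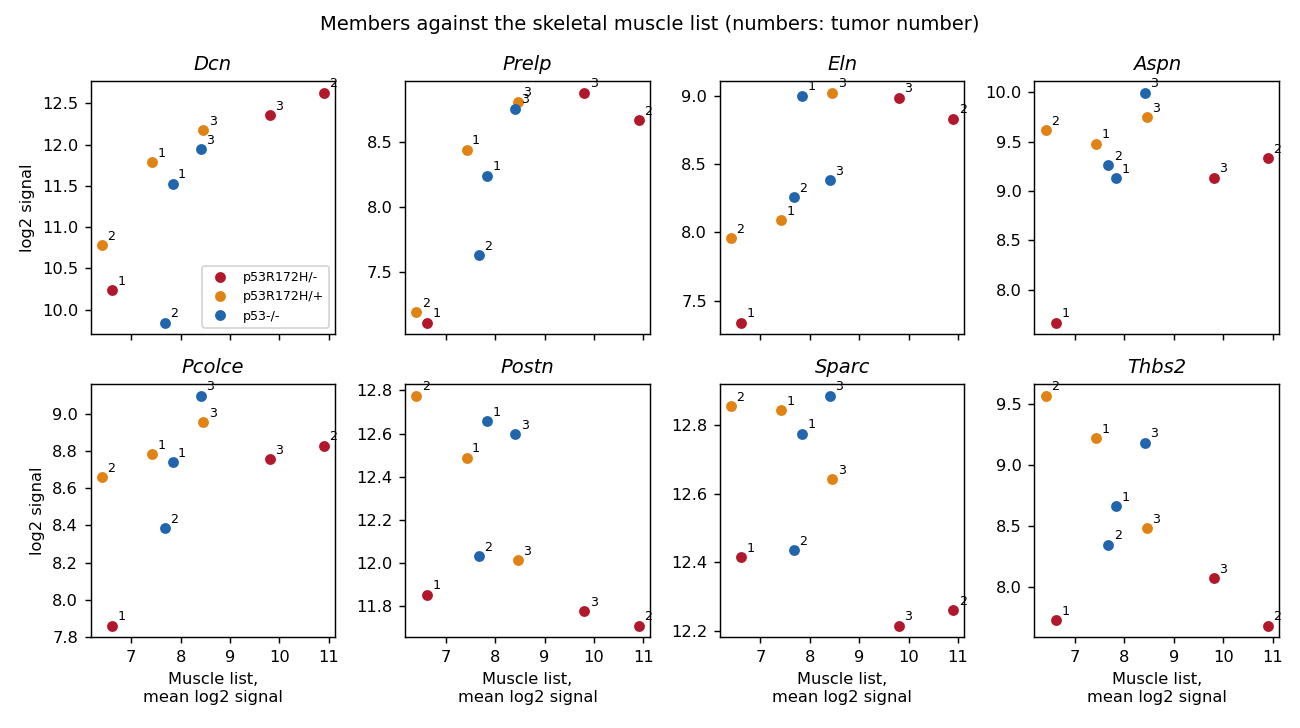
Log2 signal of 8 genes (vertical axes) against the mean log2 signal of 16 skeletal muscle genes (horizontal axes) in the 9 tumors, coloured by genotype and marked with the tumor number. In Dcn, Prelp, Eln, Aspn and Pcolce the p53R172H/- tumors 2 and 3, at muscle means of 10.91 and 9.81, lie above p53R172H/- tumor 1, at 6.61, while in Postn, Sparc and Thbs2 the 3 p53R172H/- tumors lie low over the whole range of muscle signal.

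With the muscle mean as a term in the comparisons, 22 of all genes were called in p53R172H/- against p53-/- tumors and 0 of the 31, whose smallest adjusted p was 0.0609. Aspn and Pdgfrb then had log2 fold changes of -1.16 ± 0.22 and -0.83 ± 0.16, and Mfap2 one of -0.47. Against p53R172H/+ tumors, 15 of the 31 were lower with an unadjusted p under 0.05 in place of 9, where 5.75% of all genes were lower in the same fit, and the smallest adjusted p was 0.201.

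Some listed genes lie side by side in the genome. Dcn and Lum are neighbours among coding genes on chromosome 10, and in p53R172H/- tumors 2 and 3 Dcn had its highest signals of the 9 tumors, 6349 and 5253 units, while Lum had 499.5 and 759.5 units there, in a range of 422 to 1821 units. Prelp and Fmod are neighbours on chromosome 1, and Fmod ranged over 183 to 298 units and Prelp over 139 to 469.9 units. On chromosome 13 Omd, the gene of osteomodulin, lies between Aspn and Ogn. Omd had 123, 347 and 193 units in p53R172H/- tumors, 423, 424 and 339 units in p53R172H/+ tumors and 308, 478 and 502 units in p53-/- tumors. Both Omd and Aspn had their lowest signal of the 9 tumors in p53R172H/- tumor 1.

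Other genes of the matrix were read from lists of their own. Of 18 collagens tested, 17 had a lower mean in p53R172H/- than in p53-/- tumors, where 56.2% of all genes did. Of these 11 had an unadjusted p under 0.05, against 9.16% of all genes, and the median log2 fold change was -0.62. Against p53R172H/+ tumors 17 were lower as well, where 52% of all genes were. Here 14 had an unadjusted p under 0.05, against 2.96%, at a median of -0.74. In p53R172H/+ against p53-/- tumors 3 were higher and 1 lower by that measure, against 4.75% and 5.6%, at a median of 0.08. The mean log2 signal of the collagens was 9.51, 9.36 and 9.58 in p53R172H/- tumors, 10.24, 10.36 and 9.93 in p53R172H/+ tumors and 10.06, 9.66 and 10.17 in p53-/- tumors. The mean of the 31 genes was 8.31, 8.90 and 9.04 in p53R172H/- tumors, 9.13, 8.99 and 9.10 in p53R172H/+ tumors and 9.02, 8.56 and 9.23 in p53-/- tumors, so that p53R172H/- tumors 2 and 3 lay within the range of the p53-/- tumors.

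Of 27 other matrix genes tested, 4 were lower and 0 higher with an unadjusted p under 0.05 in p53R172H/- against p53-/- tumors. The shares of all genes were 9.16% and 6.44%, and the median log2 fold change of the 27 was -0.02. One of the lower genes was Hspg2, the gene of the basement membrane proteoglycan perlecan, with 432, 501 and 475 units in p53R172H/- tumors, against 624, 678 and 641 units in p53-/- tumors. Another was Tnn, the gene of tenascin-N, with 332, 197 and 152 units in p53R172H/- tumors, against 736, 293 and 581 units in p53-/- tumors. Of 10 other collagen-modifying genes, 1 was higher and 1 lower, near the 6.44% and 9.16% of all genes, at a median of -0.01. The higher one was Pcolce2, a relative of Pcolce, with 325, 438 and 519 units in p53R172H/- tumors, against 204, 289 and 293 units in p53-/- tumors.

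Of 13 other fibroblast genes, 0 had an unadjusted p under 0.05 by limma in any of the 3 comparisons. The medians were 0.02 in p53R172H/- against p53-/- tumors, 0.12 in p53R172H/+ against p53-/- tumors and 0.01 in p53R172H/- against p53R172H/+ tumors. Pi16 and Cxcl12, the second a chemokine made by fibroblasts, were picked for varying within genotypes as Dcn did. Not all of the 13 did so. Clec3b had 163, 311 and 198 units in p53-/- tumors, highest in tumor 2. Meox1 had 361, 309 and 353 units in p53R172H/- tumors, highest in tumor 1. Pi16 had 114, 1281 and 989 units in p53R172H/- tumors, 256, 105 and 895 units in p53R172H/+ tumors and 260.1, 110.4 and 579 units in p53-/- tumors. Cxcl12 had 169.6, 1664 and 2080 units in p53R172H/- tumors, 750.0, 194 and 1190 units in p53R172H/+ tumors and 684, 173 and 921 units in p53-/- tumors.

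Markers of other stromal cells were read beside them. The mean log2 signal of 9 endothelial genes was 7.71 to 7.91 in p53R172H/- tumors, 7.80 to 7.997 in p53R172H/+ tumors and 7.71 to 8.05 in p53-/- tumors. That of 9 smooth muscle and pericyte genes was 8.24 to 8.78 in p53R172H/- tumors, 8.55 to 8.61 in p53R172H/+ tumors and 8.52 to 8.68 in p53-/- tumors. Among these genes Des had 180, 1217 and 629 units in p53R172H/- tumors 1 to 3, in the same order as the skeletal muscle list there. The mean log2 signal of 9 leukocyte genes was 8.30 to 8.999 in p53R172H/- tumors, 8.78 to 9.04 in p53R172H/+ tumors and 8.20 to 8.88 in p53-/- tumors, with the lowest values in p53R172H/- tumor 1 and p53-/- tumor 2. The median log2 fold change of the leukocyte genes in p53R172H/+ against p53-/- tumors was 0.38. Of the 9, 3 were higher with an unadjusted p under 0.05, against 4.75% of all genes. Of 3 cartilage and bone genes the summed signal was 347, 705 and 383 units in p53-/- tumors 1 to 3. It was 295 to 337 units in p53R172H/- tumors and 327 to 397 units in p53R172H/+ tumors. The part of any of these cells in the levels of the matrix genes was not tested.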

How the data were processed

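Total RNA of 9 tumors was purified, labelled with biotin and hybridised to 1 Affymetrix array each, per the labels' protocols. The deposited values are linear signal intensities, 1 for each probe set on each array, which the authors made with MAS5, per the submitters' processing notes. No source used here gives its version or scaling. Of 45101 probe sets 64 are controls. Of the others 34945 have 1 gene symbol in the platform's annotation, 932 several and 9160 none, and only the first kind was used. 34741 matched the RefSeq table (GRCm38.p6).

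A floor was set at the 20th percentile of all values (52.6 units), followed by log2, with no further normalization. At this floor lay 0.0758% of the tested values. The brightest probe set stood for each gene, and genes with a mean under 113 units were left out. The linear model, with 1 mean for each genotype and all 9 arrays, used limma 3.58.1 in R 4.3.3 (lmFit and eBayes, trended variance). Two-sided p-values were adjusted by Benjamini and Hochberg's method across 12167 genes (threshold 0.05). The fit was tested on simulated data. The number of arrays limits the precision.

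The listed genes, the other lists and the tests were chosen with earlier results of these data known. In each comparison the values of every tumor are given for the 10 listed genes with the smallest unadjusted p, and the other genes are given by range, except those shown for their spread within genotypes or on the other lists, which were chosen after their values were seen. No pair of arrays was alike in over 0.0421% of the probe sets, so none was taken for a copy. The targeted gene is not reported here, so the genotype labels were not checked against it.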

Additional observations from a re-analysis of the deposited data

How the results depend on the processing

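Of 641 recomputed fold changes of the named genes, under 22 other settings, 637 kept their direction and 0 passed an adjusted p of 0.05, the smallest being 0.0609. The 4 reversals were in p53R172H/+ against p53-/- tumors: Fbln2 at -0.048 and Tnc at -0.060 as the mean of all probe sets, and, without p53-/- tumor 2, Loxl3 at 0.024 and Tnc at -0.050. The cause was not tested. With single tumors left out, Loxl3 ranged from -0.46 to 0.024 and Tnc from -0.050 to 0.46.

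In p53R172H/- against p53-/- tumors, 22 of all genes were called with the muscle mean as a covariate and 3 without p53R172H/- tumors 2 and 3, where the median of the 31 genes was -0.58. That setting, added after the data were seen, leaves only p53R172H/- tumor 1 in its group and takes its spread from the other groups. With the actin ratio as a covariate 4 of the 31 were lower and 1 higher by unadjusted p, against 2.40% and 3.26% of all genes. With single tumors left out the median was -0.40 to -0.04 (the second without p53R172H/- tumor 1), 6 to 10 genes were lower and 0 to 1 higher. In the same fits 5.67% to 10.2% of all genes were lower and 3.99% to 6.88% higher. In p53R172H/+ against p53-/- tumors the 1 lower gene became 0 under a stricter filter, the mean of all probe sets or the most variable probe set, with only these 2 groups fitted, under either covariate and without p53R172H/- tumors 2 and 3. In these fits 1.39% to 5.45% of all genes were lower. The 1 higher gene became 0 under the mean of all probe sets and the most variable one, where 5.01% and 5.90% of all genes were higher. It became 2 with the muscle covariate, where 5.20% were. With single tumors left out these counts were 0 to 1 lower and 0 to 3 higher, with a median of -0.06 to 0.24. There 2.85% to 9.07% of all genes were lower and 3.07% to 6.21% higher. In p53R172H/- against p53R172H/+ tumors, 15 genes were lower with the muscle covariate, where 5.75% of all genes were. The median was -0.74 without p53R172H/- tumors 2 and 3. Single tumors left out gave a median of -0.44 to -0.18, with 6 to 13 genes lower and 0 to 1 higher. In those fits 2.04% to 3.54% of all genes were lower and 1.22% to 4.92% higher. The count of passing muscle slopes with single tumors left out was 0 to 6, against 0.0904% to 2.96% of all genes.

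Same-numbered tumors of different groups correlated at -0.50 to 0.24 in their deviations from the group means, and differently numbered ones at -0.47 to 0.52. The tumor numbers were therefore not taken as pairs. These correlations cannot exclude a pairing, since the deviations within a group of 3 are not independent. With the replicate block 0 genes were called, and 7, 0 and 8 of the 31 were lower by unadjusted p in the comparisons in the order above, where 8.70%, 5.18% and 3.06% of all genes were lower in the same fit. Beyond 3 tumors a group, dim probe sets limit Plod1, Plod2, Vcan and Thbs3, which lie near the filter.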

Other observations

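Col12a1, the gene of a fibril-associated collagen, departed from the other collagens. It had 513, 496 and 707 units in p53R172H/- tumors, 1711, 1961 and 1169 units in p53R172H/+ tumors and 347, 194 and 551 units in p53-/- tumors, so that the p53R172H/+ tumors lay above both other groups without overlap. Col11a1, a minor fibrillar collagen, had 81.8, 68.4 and 77.0 units in p53R172H/- tumors, 138, 207 and 193 units in p53R172H/+ tumors and 107, 129 and 119 units in p53-/- tumors, with no overlap between any 2 groups. All p53R172H/- signals of Col11a1, and its 107 units in p53-/- tumor 1, lay under the 113 units of the filter. Col11a1 was tested because the filter applies to a gene's mean, so its separation of these groups is between dim signals. Both genes were chosen after their values were seen.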
